A study of Mus musculus with 12 samples.

Results

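The 43 collagen genes of a mouse RNA sequencing table of 22552 genes are described here across cultured myoblasts and striated muscle of mice labelled as knockouts of the lamin B receptor gene or of the gene for lamins A and C. Every row was taken whose symbol has the form Col, a type number, the letter a and a chain number. By type, 11 of the 43 encode chains of fibrillar collagens, 9 fibril-associated collagens, 6 type IV, 6 type VI, 3 types VIII and X, 4 transmembrane collagens and 2 multiplexins, with Col7a1 and Col28a1 on their own. Col26a1 stands in the table under its older symbol, Emid2, and is outside the rule.

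The samples were 12 RNA libraries of C57Bl/6 mice, 6 from myoblasts, the precursor cells of muscle fibres, and 6 from striated muscle. The genotypes were homozygous knockout of Lbr (LBR_KO), which encodes an inner nuclear membrane receptor of the lamina, homozygous knockout of Lmna (LMNA_KO), which encodes lamins A and C, and wild type (wt), all from matings of heterozygous parents. The table gives 7 columns of FPKM, the fragments per kilobase of transcript scaled to library size, with 1 column for each group. The knockout columns and that of wild-type muscle stand for 2 samples each, and the wild-type myoblast columns for 1 library each, 1 per litter (Lbr litter and Lmna litter). The labels used here do not give ages, the deleted part of either gene or how samples were combined. The values therefore carry no replicate error and differences between columns have no replicate check. A gene is said to rise, fall or change only at a 2-fold difference or more, a log2(FPKM + 1) difference of 1, a scale that understates the change of low genes. A comparison took in genes averaging 1 FPKM or more over the columns of its tissue, and left out any listed at 0 in a column it used. Between tissues the average was over the wild-type columns, with each tissue weighing equally.

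Some properties of the columns bear on every value below. Lmna stood at 18.5 FPKM in LMNA_KO myoblasts against 147 in the wild type of that litter, and at 22.6 against 59.5 FPKM in muscle. Lbr stood at 1.87 against 11.8 FPKM in LBR_KO muscle, but at 7.71 against 16.1 FPKM in LBR_KO myoblasts, a log2(FPKM + 1) difference of -0.97, so the column labelled LBR_KO still held Lbr signal. Every direction drawn from it below is that of the column with this label. The cultures labelled as myoblasts held the satellite cell gene Pax7 at 0.15 to 0.27 FPKM and Myod1, a regulator of the muscle lineage, at 2.09 to 5.51 FPKM. Thy1, a surface protein of fibroblasts but not of them alone, was at 250.3 to 434 FPKM. It made up most of the sum of 9 fibroblast markers, 317 to 480 FPKM. Only 5 of these 9 passed the filter in myoblasts, and up to 3 were listed at 0 in a myoblast column. In such bulk samples, fewer cells of a type and less RNA per cell cannot be told apart. Depth was estimated by taking the commonest product of FPKM and length among single-transcript genes as 1 fragment, which was not checked. On that basis, 1 FPKM of a 5 kb transcript would be roughly 58.7 to 84.9 fragments in myoblast columns. In muscle columns it would be 9.31 to 20.4 fragments. By this estimate low muscle values are the least precise.

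Collagens are secreted proteins whose chains wind into helical trimers. Fibrillar collagens (types I, II, III, V, XI, XXIV and XXVII) build the banded fibrils of connective tissue, and fibril-associated collagens, or FACITs, decorate their surface. Type IV forms the sheet of basement membranes, type VI the beaded filaments that link cells to the matrix around muscle fibres, and type VIII a short-chain network around vessels and other cells. In skeletal muscle most collagen is made by connective tissue cells between the fibres. The chains are hydroxylated and folded in the endoplasmic reticulum, trimmed by proteases outside the cell and crosslinked by lysyl oxidases.

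Collagen expression was dominated by types I and III in all 7 columns. The 43 genes summed to 3424 to 3884 FPKM in myoblasts and 2000.0 to 2127 FPKM in muscle, which was 0.837% to 1.09% and 0.421% to 0.429% of all FPKM. Col1a1, Col1a2 and Col3a1 together took 62.1% to 67.9% of the collagen sum in myoblasts and 66.0% to 67.1% in muscle. The rest was divided differently in the tissues. Type VI took 4.20% to 5.22% in myoblasts and 10.9% to 11.5% in muscle, type IV 4.73% to 8.59% and 9.02% to 9.34%, and the multiplexins 0.789% to 1.00% and 3.20% to 4.26%. FACITs took 4.51% to 6.07% in myoblasts and 2.17% to 2.38% in muscle, and types VIII and X 3.15% to 4.16% and 0.140% to 0.215%. These ranges of the myoblast and muscle columns do not overlap for any of the 5 classes.

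**Figure D1:**
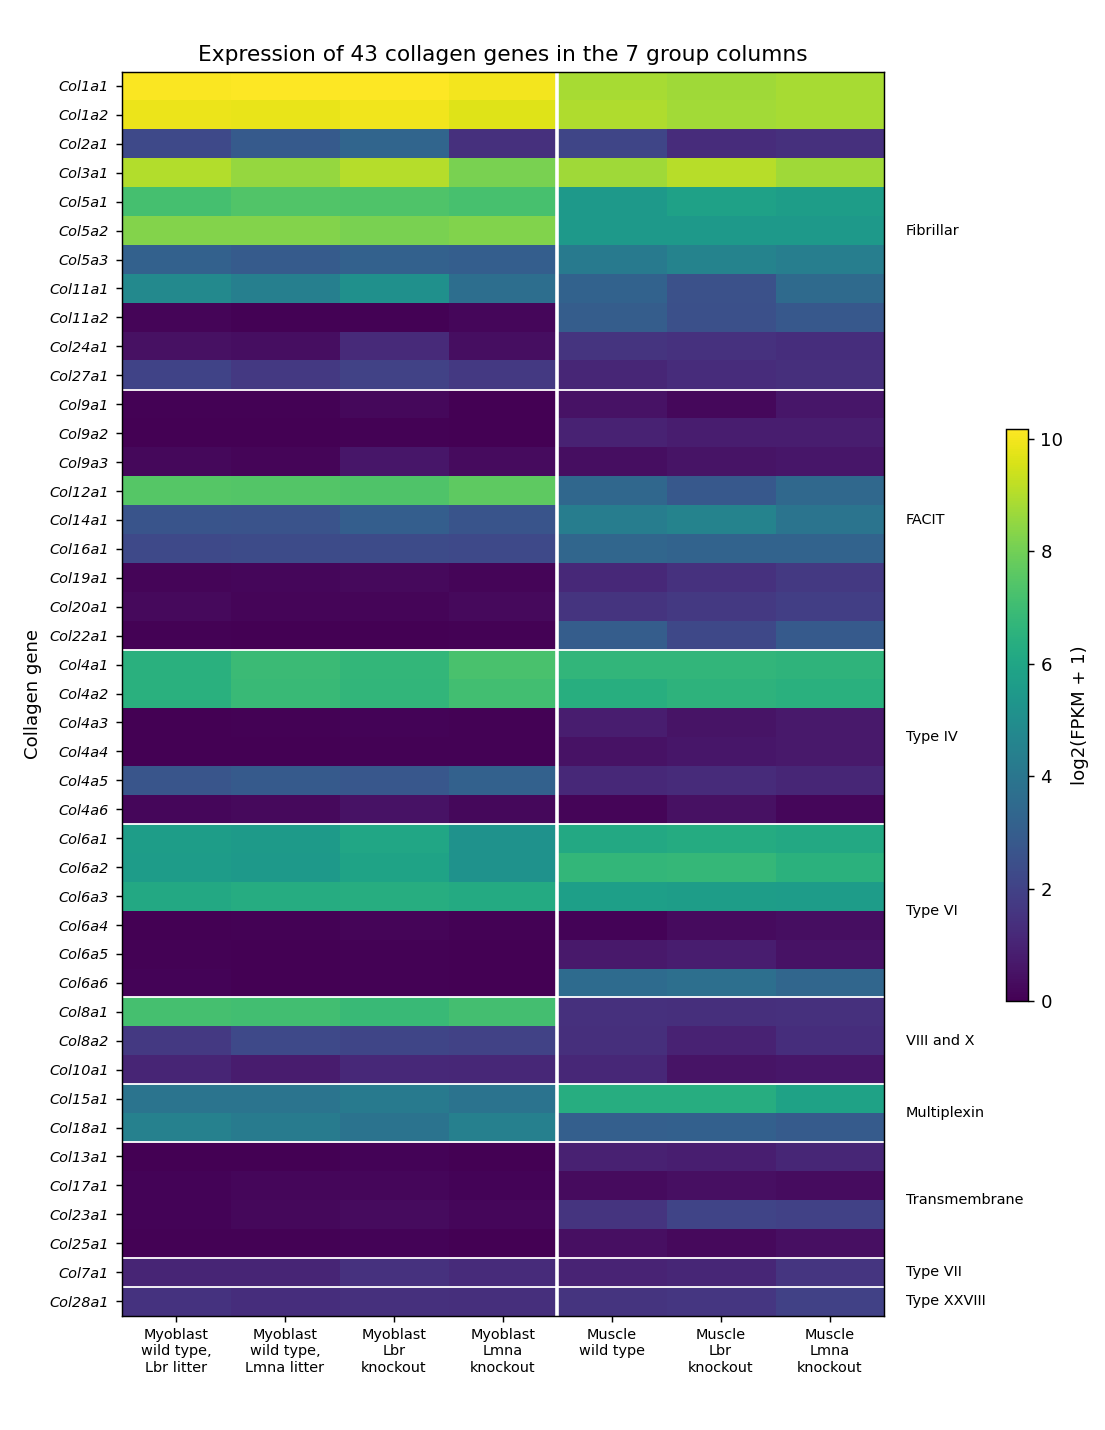
Expression of each of the 43 collagen genes (rows, grouped by class) in the 7 group columns, as colour on the log2(FPKM + 1) scale, 4 myoblast columns to the left of the white line and 3 muscle columns to the right. Col1a1, Col1a2 and Col3a1 are bright in every column, Col12a1 and Col8a1 in the myoblast columns, and Col6a6, Col11a2 and Col22a1 are near 0 in all myoblast columns and visible in muscle.

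Of the 43 genes, 25 passed the level filter in myoblasts and 31 in muscle, 24 of them in both. The 11 that passed in neither were Col4a3, Col4a4, Col4a6, Col6a4, Col6a5, Col9a1, Col9a2, Col9a3, Col13a1, Col17a1 and Col25a1. They include 3 chains of type IV that are known from kidney and other specialised basement membranes and all chains of type IX, a cartilage FACIT. Among the genes below the filter, 17 in myoblasts and 10 in muscle stayed under 1 FPKM in every column of the tissue, and 4 were listed at 0 in a myoblast column.

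Wild-type muscle was set against the mean log2 value of the wild-type myoblast libraries to describe the tissues before the knockouts. Tissue and library kit cannot be told apart in this comparison. Of 31 collagen genes compared, 11 were higher in muscle and 8 lower by at least 2-fold, against 17.6% and 36.8% of all 11994 genes compared. Of the 11, Col6a6, Col11a2, Col20a1, Col22a1, Col23a1 and Col24a1 averaged 0.34 FPKM or less in wild-type myoblasts. They passed the filter only through muscle, which all but fixed a call of higher. The filter acted likewise on all genes. These collagen genes also enter the higher shares and the count over single columns below. The median of the collagen genes was -0.03 and that of all genes -0.55. With each column centred on its median, 12 were higher and 5 lower, so that the higher share of the collagen genes that differed went from 57.9% to 70.6%. Over all genes that share went from 32.4% to 55.0%, so the shift was not confined to collagen genes. Col1a1, Col11a1 and Col18a1 were the genes whose lower level then came to less than 2-fold, at -0.75, -0.81 and -0.72. In place of the mean, each column can be asked for: 13 of 30 genes had all 3 muscle values above all 4 myoblast values and 12 had them all below, against 28.5% and 50.5% of all genes.

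**Figure D2:**
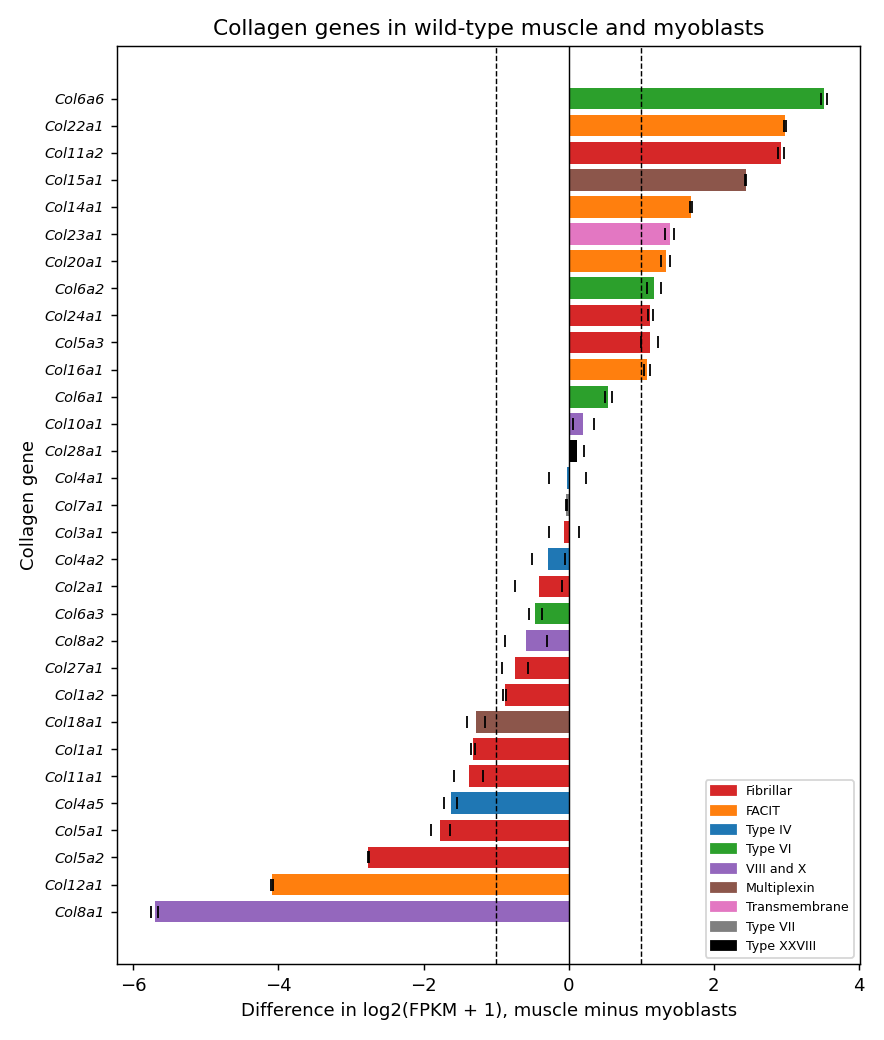
Difference in log2(FPKM + 1) between wild-type muscle and the mean of both wild-type myoblast libraries for 31 collagen genes, coloured by class, with ticks for the difference from each library and dashed lines at 2-fold. The bars run from -5.71 for Col8a1 to 3.52 for Col6a6, and FACIT genes lie near both ends.

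Type I collagen, the main fibril protein of tendon, bone and muscle connective tissue, is built from the products of Col1a1 and Col1a2. Col1a1 stood at 1109 and 1151 FPKM in the wild-type myoblasts of the Lbr and Lmna litters, 1121 in LBR_KO and 1027 in LMNA_KO myoblasts, and at 453 FPKM in wild-type, 426 in LBR_KO and 459 in LMNA_KO muscle. Col1a2 stood at 930, 902, 988 and 823 FPKM in the same order of myoblast columns, and at 497, 433 and 463 FPKM in muscle. All myoblast values lay above all muscle values for both chains. The level of Col1a1 per FPKM of Col1a2 was 1.13 to 1.27 in myoblasts and 0.912 to 0.992 in muscle. Because FPKM is scaled by length, such ratios compare transcript levels of different genes, subject to how well the length is known.

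Col3a1, which encodes the single chain of type III collagen of distensible tissues, was as high in muscle as in myoblasts. It stood at 505 and 380 FPKM in the wild-type myoblasts of the Lbr and Lmna litters, 528 in LBR_KO and 276 in LMNA_KO myoblasts, and at 418, 545 and 419 FPKM in wild-type, LBR_KO and LMNA_KO muscle. The highest myoblast column was LBR_KO and the lowest LMNA_KO, and the myoblast and muscle ranges overlap. Per FPKM of Col1a1 it reached 0.269 to 0.471 in myoblasts and 0.913 to 1.28 in muscle, ranges that do not overlap.

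Type V collagen lies inside type I fibrils and limits their width. Col5a2 stood at 307 and 310 FPKM in the wild-type myoblasts of the Lbr and Lmna litters, 282 in LBR_KO and 299.6 in LMNA_KO myoblasts, and at only 43.4 to 44.6 FPKM in the 3 muscle columns. Col5a1 ran from 141 to 169 FPKM in myoblasts and from 44.7 to 56.1 FPKM in muscle. The third chain, Col5a3, had the opposite order, with 6.60 to 8.03 FPKM in myoblasts and 16.9 to 22.5 FPKM in muscle. In the wild types the log2 differences, muscle minus myoblasts, were -2.76 for Col5a2, -1.77 for Col5a1 and 1.12 for Col5a3. Col5a1 came to 0.460 to 0.578 FPKM per FPKM of Col5a2 in myoblasts and 1.00 to 1.29 in muscle.

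Types XI and II are the fibrillar collagens of cartilage, and type XI also takes part in tendon fibrils. Col11a1 stood at 26.7 and 20.0 FPKM in the wild-type myoblasts of the Lbr and Lmna litters, 33.4 in LBR_KO and 11.8 in LMNA_KO myoblasts, and at 8.30, 4.77 and 10.4 FPKM in wild-type, LBR_KO and LMNA_KO muscle. Its partner chain Col11a2 was at 0.04 to 0.13 FPKM in the 4 myoblast columns and at 7.11, 4.57 and 6.06 FPKM in the muscle columns in that order. Col11a2 was thus near 0 in the tissue in which Col11a1 was highest, and the chains were within 2-fold of each other in all muscle columns, at 1.04 to 1.72 FPKM of Col11a1 per FPKM of Col11a2. Col2a1, the single chain of type II, which in cartilage also supplies a chain of type XI, stood at 3.69 and 6.36 FPKM in the Lbr-litter and Lmna-litter wild types, 9.01 in LBR_KO and 1.69 in LMNA_KO myoblasts. In muscle it was at 3.41 FPKM in the wild type, 1.43 in LBR_KO and 1.69 in LMNA_KO.

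The upstream sequences of Col11a1 and Col11a2 are shown because these chains of the same collagen type differed between the tissues in opposite directions. RefSeq windows of the GRCm38.p6 build were used, which is not the build named for the deposited values, and they served only for sequence. Each run covers the 250 bases before the annotated start and is printed in the direction of transcription. Capitals mark matches on either strand to any of 3 motifs. The GC box was searched as GGGCGG. The letters of the next motif, CCAAT, give it its name. For the TATA box the search was for TATAAA. Matches of different motifs may share end bases, and a match is one of letters, not a known binding site. None of the 4 windows printed here and below overlaps an annotated exon. Col11a1 lies at chr3:114030290-114030539 on the plus strand, with 62.4% G or C, and Col11a2 at chr17:34038888-34039137 on the plus strand, with 57.6%.
Col11a1: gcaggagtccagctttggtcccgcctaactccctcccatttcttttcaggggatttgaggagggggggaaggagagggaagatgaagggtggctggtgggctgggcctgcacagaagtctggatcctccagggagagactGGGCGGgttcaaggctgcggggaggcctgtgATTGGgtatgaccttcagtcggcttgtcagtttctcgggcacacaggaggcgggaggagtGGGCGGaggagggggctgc
Col11a2: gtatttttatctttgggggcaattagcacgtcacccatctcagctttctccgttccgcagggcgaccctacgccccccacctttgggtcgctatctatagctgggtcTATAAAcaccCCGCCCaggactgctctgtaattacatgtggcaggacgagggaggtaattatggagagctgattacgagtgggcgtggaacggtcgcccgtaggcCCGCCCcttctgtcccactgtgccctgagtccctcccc
The Col11a1 window held 2 GC boxes and 1 CCAAT box, and the Col11a2 window 2 GC boxes and 1 TATA box.

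FACITs were found at both ends of the tissue comparison. Col12a1, a large FACIT of tendon and of the connective tissue around muscle, stood at 178 and 175 FPKM in the wild-type myoblasts of the Lbr and Lmna litters, 163 in LBR_KO and 198 in LMNA_KO myoblasts. In muscle it was at 9.45 FPKM in the wild type, 6.03 in LBR_KO and 9.97 in LMNA_KO, a wild-type log2 difference of -4.09. Col22a1, a FACIT of the junction between muscle and tendon, was at 0.01 to 0.03 FPKM in myoblasts and at 7.09, 3.59 and 6.46 FPKM in wild-type, LBR_KO and LMNA_KO muscle (wild-type difference 2.99). Col14a1 (5.10 to 7.28 FPKM in myoblasts, 13.9 to 22.7 FPKM in muscle), Col16a1 and Col20a1 were also higher in muscle, with wild-type differences of 1.69, 1.08 and 1.34. Col19a1, at 0.10 to 0.19 FPKM in myoblasts, reached 1.25 to 2.26 FPKM in muscle, and its mean over the wild-type columns kept it out of the tissue comparison.

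The basement membrane chains Col4a1 and Col4a2, whose products form the common type IV trimer, had like levels in both tissues. Col4a1 stood at 86.1 and 123 FPKM in the wild-type myoblasts of the Lbr and Lmna litters, 105 in LBR_KO and 149 in LMNA_KO myoblasts, and at 102, 102 and 95.9 FPKM in wild-type, LBR_KO and LMNA_KO muscle. Col4a2 stood at 85.9, 118, 101 and 136 FPKM in the same order of myoblast columns, and at 82.8, 94.2 and 85.8 FPKM in muscle. Both chains took the same order over the myoblast columns, with the Lbr-litter wild type lowest and LMNA_KO highest, and their ratio stayed between 1.00 and 1.23 in all 7 columns. Their start sites lie head to head, and the 300-base RefSeq windows around them overlap by 78 bases. Col4a5 ran from 5.45 to 7.98 FPKM in myoblasts and from 1.16 to 1.37 FPKM in muscle (wild-type difference -1.62).

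Type VI chains differed from each other in their tissue pattern. Col6a1 stood at 49.1 and 45.8 FPKM in the wild-type myoblasts of the Lbr and Lmna litters, 63.9 in LBR_KO and 35.5 in LMNA_KO myoblasts, and at 69.7, 74.6 and 69.1 FPKM in wild-type, LBR_KO and LMNA_KO muscle. Col6a2 stood at 48.8, 42.6, 59.1 and 35.4 FPKM in the same myoblast order and at 104, 108 and 89.9 FPKM in muscle. Col6a3, the long chain that joins them, ran from 69.1 to 79.8 FPKM in myoblasts and from 48.7 to 53.1 FPKM in muscle. Col6a6, which can take the place of that long chain, was at 0.01 to 0.07 FPKM in myoblasts and at 10.9, 12.1 and 9.32 FPKM in muscle, with a wild-type difference of 3.52. Per FPKM of Col6a2, the level of Col6a3 was 1.35 to 2.06 in myoblasts and 0.456 to 0.542 in muscle.

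Col8a1, a chain of the short-chain network of vessel walls and other matrices, was, of the collagen genes compared, the one with the largest difference towards myoblasts. It stood at 144 and 134 FPKM in the wild-type myoblasts of the Lbr and Lmna litters, 118 in LBR_KO and 138 in LMNA_KO myoblasts, and at 1.56 to 1.68 FPKM in the muscle columns (wild-type difference -5.71). Its partner Col8a2 was at 2.18 to 3.74 FPKM in myoblasts and 0.96 to 1.58 FPKM in muscle. Among the multiplexins, which carry sugar chains and sit in or near basement membranes, Col15a1 was higher in muscle (13.8 to 16.8 against 57.4 to 80.7 FPKM, wild-type difference 2.45) and Col18a1 lower (13.8 to 21.4 against 6.56 to 7.70 FPKM, -1.28). Col23a1, a transmembrane collagen, and Col24a1, a minor fibrillar chain, were at 1.40 and 1.13. Col10a1, Col27a1 and Col28a1 stayed between 0.463 and 3.08 FPKM in all columns, and Col7a1, the anchoring fibril chain, between 1.03 and 1.97 FPKM.

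The upstream windows of Col8a1 and Col15a1 are shown because Col8a1 had the largest difference towards myoblasts, and Col15a1 the largest towards muscle among collagen genes at 5 FPKM or more in every column. Col8a1 lies at chr16:57754738-57754987 on the minus strand, with 60.8% G or C, and Col15a1 at chr4:47207762-47208011 on the plus strand, with 53.6%.
Col8a1: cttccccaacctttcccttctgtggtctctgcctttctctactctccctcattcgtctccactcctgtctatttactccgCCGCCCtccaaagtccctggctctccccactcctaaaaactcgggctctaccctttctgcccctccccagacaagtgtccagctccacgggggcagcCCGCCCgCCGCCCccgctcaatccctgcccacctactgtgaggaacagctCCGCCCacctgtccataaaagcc
Col15a1: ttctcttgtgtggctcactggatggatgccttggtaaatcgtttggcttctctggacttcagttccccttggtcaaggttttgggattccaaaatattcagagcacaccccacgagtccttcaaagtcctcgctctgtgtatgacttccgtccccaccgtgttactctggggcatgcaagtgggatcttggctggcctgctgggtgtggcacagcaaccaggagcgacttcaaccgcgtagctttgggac
The Col8a1 window held 4 GC boxes and the Col15a1 window no match to the 3 motifs. Of the 35 of 43 collagen genes with a window, 21 (60%) held a GC box in any of their windows. A CCAAT box was held by 13 (37.1%) and a TATA box by 5 (14.3%). Of 32851 single windows of the same length, 32.7%, 33.8% and 12.4% held these motifs. The collagen shares are per gene and these are per window, and a gene with several windows has more chances of a match. The shares are therefore not like for like.

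The machinery around the collagens was set beside these levels. Of 19 genes of collagen modification and folding compared, 0 were higher and 18 lower in wild-type muscle, with a median of -2.50. Serpinh1, the collagen chaperone, was at 387 and 559 FPKM in the wild-type myoblasts and 116 FPKM in wild-type muscle, and Plod2, a lysyl hydroxylase, at 100.3 and 75.8 against 2.58 FPKM. Of 11 processing and crosslinking genes, 0 were higher and 10 lower (median -2.78), among them Lox, a lysyl oxidase, at 931 and 712 against 10.7 FPKM (-6.12). Of 8 receptor and uptake genes, 0 were higher and 7 lower (median -2.05), with Itga11, a collagen-binding integrin of fibroblasts, at -3.30. Centred on column medians, 17 of the 19, 8 of the 11 and 5 of the 8 were lower, against 21.5% of all genes. The collagen genes themselves had no such common direction, and the 10 fibril-binding proteins compared also divided, with 5 higher and 2 lower: Lum, the proteoglycan lumican, was at 5.63 and Bgn, biglycan, at -4.31. Of 12 basement membrane partners, 1 was higher and 5 were lower (median -0.61), with Nid1, which links laminin to type IV collagen, at -2.70 and Lama2, the main laminin chain of muscle, at 1.03. All genes had 17.6% higher, 36.8% lower and a median of -0.55, so this list lay near the general shift. Centred on column medians, 3 of the 12 were higher and 2 lower (median -0.05), against 26.2% and 21.5% of all genes.

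Knockout myoblasts were then set against their littermate wild type. In LBR_KO myoblasts 1 of 25 collagen genes rose and 0 fell, against 2.48% and 0.122% of 11463 genes, and the gene that rose was Col2a1 (3.69 to 9.01 FPKM, log2 difference 1.09). In LMNA_KO myoblasts 0 of 25 rose and 1 fell, against 0.602% in each direction of 11462 genes, and it was again Col2a1 (6.36 to 1.69 FPKM, -1.45). The median differences of the collagen genes were 0.11 and -0.01, beside 0.05 and 0.04 for all genes. LBR_KO had 19 of 25 collagen genes above its wild type and LMNA_KO 12 of 25, against 60.9% and 58.1% of all genes.

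These calls depended on the wild-type library. With the other litter as control, LBR_KO myoblasts had 0 collagen genes that rose and 0 that fell (1.56% and 0.541% of all genes), and Col2a1 was at 0.44. LMNA_KO myoblasts had 0 that rose and 1 that fell (3.39% and 1.13% of all genes), which was Col11a1 (26.7 to 11.8 FPKM, -1.11) while Col2a1 was at -0.80. The wild types themselves differed at 0 of 25 collagen genes in either direction (Lmna litter higher at 2.03% of all genes, lower at 0.687%), by -0.41 for Col3a1 at one end and 0.65 for Col2a1 at the other.

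**Figure D3:**
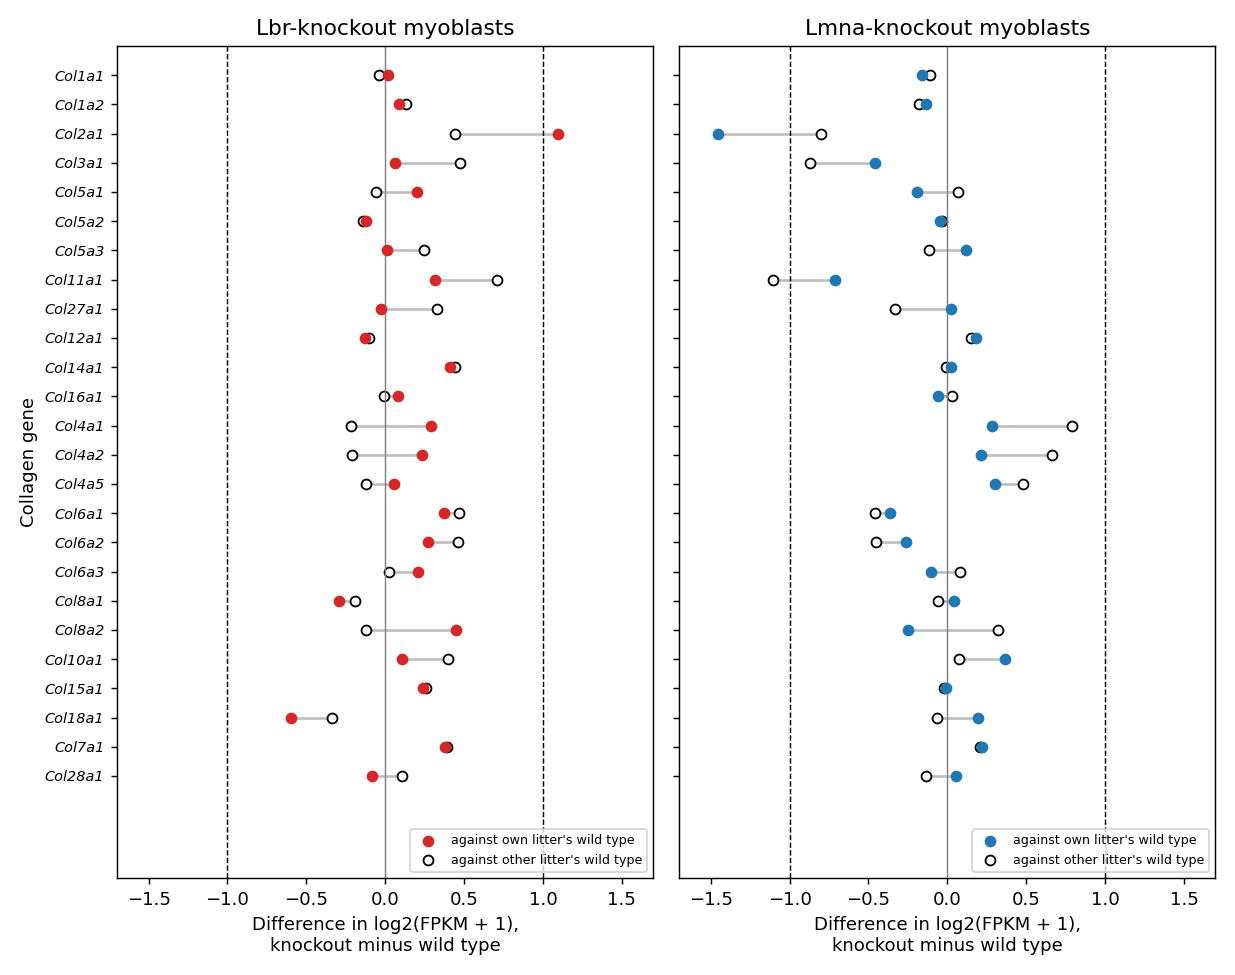
Difference in log2(FPKM + 1) between each knockout and wild-type myoblasts for 25 collagen genes, with filled points against the own litter's wild type, open points against the other litter's, and dashed lines at 2-fold. Col2a1 passes a line in both knockouts with filled points only, Col11a1 passes it in LMNA_KO with the open point, and the 3 type IV genes lie to the right of 0 with both points in LMNA_KO.

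Positions against both wild types are free of the choice of control. LBR_KO lay above both at 12 of 25 collagen genes and below both at 4 (31.9% and 22.4% of all genes). LMNA_KO lay above both at 6 and below both at 9 (42.4% and 25.3% of all genes). The knockout lay outside the wild types by more than their gap at 10 of 25 genes in LBR_KO and 11 of 25 in LMNA_KO, against 19.4% and 22.3% of all genes. Col3a1, Col11a1, Col6a1, Col6a2, Col1a2, Col15a1 and Col2a1 had LBR_KO as the highest and LMNA_KO as the lowest of the 4 columns. For Col15a1 LMNA_KO was almost level with the wild types, at 13.85 FPKM against 13.92 (Lmna litter) and 14.08 (Lbr litter). Col5a2 was below both wild types in both knockouts, Col7a1 and Col10a1 above both in both knockouts, and Col12a1 below both in LBR_KO and above both in LMNA_KO.

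By class, the fibrillar genes compared had medians of 0.06 in LBR_KO (7 of 9 above their wild type) and -0.16 in LMNA_KO (7 of 9 below it). Col3a1 differed by 0.06 in LBR_KO and -0.46 in LMNA_KO, or by 0.47 and -0.87 against the other litter's wild type. Col11a1 differed by 0.31 and -0.71, or by 0.71 and -1.11. Col1a1 and Col1a2 stayed within 0.18 of every wild type in either direction. Type V chains stayed between -0.19 and 0.25.

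Type IV and type VI chains stayed under 2-fold in every myoblast comparison. In LMNA_KO the type IV genes Col4a1, Col4a2 and Col4a5 were at 0.28, 0.21 and 0.30 against their own wild type and at 0.79, 0.66 and 0.48 against the other. In LBR_KO the same genes were at 0.06 to 0.29 against their own wild type and at -0.22 to -0.12 against the other, a change of sign. Type VI had the opposite order: Col6a1 and Col6a2 were at 0.37 and 0.27 in LBR_KO and -0.36 and -0.26 in LMNA_KO, and at 0.47, 0.46, -0.46 and -0.46 with the wild types exchanged. Col6a3 was at 0.21 and -0.10, and at 0.03 and 0.08 with the wild types exchanged. Col18a1 was the lowest gene of LBR_KO at -0.60 (-0.34 against the other wild type).

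Because the wild types are the only libraries that give a spread, a limma fit took them as 1 group with the knockout columns as 1 column each. Its error has 1 residual degree of freedom and 25.8 from the prior, and the knockouts are assumed to vary like the wild types. At an adjusted p under 0.05, 0 of 25 collagen genes passed in LBR_KO and 0 of 25 in LMNA_KO, against 0.323% and 0.411% of 11447 genes. Unadjusted p-values under 0.05 were reached by 1 and 2 collagen genes. In LMNA_KO, Col2a1 was at -1.13 ± 0.34 (SE; limma with Benjamini-Hochberg adjustment, adjusted p = 0.289) and Col11a1 at -0.91 ± 0.33 (limma adjusted p = 0.793). In LBR_KO, Col2a1 was at 0.77 ± 0.34 (limma adjusted p = 1.00).

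The knockouts were also set against each other in that fit, a contrast added after the values were seen. It passed for 1 of 25 collagen genes, against 0.795% of all genes, and 3 had an unadjusted p under 0.05. Col2a1 was higher in LBR_KO than in LMNA_KO by 1.90 ± 0.39 (SE; limma adjusted p = 0.00863). Col11a1 differed by 1.42 ± 0.38 (limma adjusted p = 0.106) and Col6a1 by 0.83 ± 0.39 (limma adjusted p = 0.741). No spread among knockout animals enters these values.

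Marker genes of tendon, cartilage and muscle were set beside Col2a1 and Col11a1 in the myoblast columns. Of 5 tenocyte marker genes compared in LMNA_KO, 0 rose and 2 fell against the own litter's wild type, with a median of -0.78 (1 fell, median -0.56, against the other). Over all genes 0.602% rose and 0.602% fell with the own control, and 1.13% fell with the other. Thbs4, a tendon matrix glycoprotein, fell from 27.6 to 4.25 FPKM and Scx, the tendon transcription factor scleraxis, from 5.21 to 1.67 FPKM, while Fmod and Tnmd, also of that list, were at -0.08 and 0.05. The summed level of the 5 was 68.9 FPKM in LMNA_KO, 126 in LBR_KO and 99.5 and 109 FPKM in the Lmna-litter and Lbr-litter wild types. Cartilage markers summed to 8.72 to 11.2 FPKM over the myoblast columns, most of it from Sox9, a cartilage regulator, at 9.87 FPKM in LMNA_KO and 7.55 in LBR_KO. The sum was highest in LMNA_KO (11.2 FPKM), where Col2a1 was lowest. Acan, the main cartilage proteoglycan, was at 0.38 FPKM in LMNA_KO, 0.52 in LBR_KO and 0.43 and 0.51 FPKM in the Lmna-litter and Lbr-litter wild types. These values are below the 1 FPKM filter, so Acan was not compared. The sum of the muscle fibre genes was lowest in LMNA_KO (33.4 FPKM) and highest in LBR_KO (124 FPKM), as was Col2a1. It was 81.8 and 44.7 FPKM in the Lmna-litter and Lbr-litter wild types. Acta1, of this list, made up most of the LMNA_KO sum. It stood at 32.5 FPKM there and 25.5 FPKM in the Lbr-litter wild type, so LMNA_KO was not its lowest column. Against the own wild type, 3 of 3 muscle fibre genes compared rose in LBR_KO and 1 of 2 fell in LMNA_KO (1 of 3 and 1 of 2 with the other litter as control). The shares of all genes were 2.48% and 0.602% (1.56% and 1.13% with the other control). Of the myoblast markers, Des, the muscle filament protein desmin, was at 85.2 FPKM in LBR_KO, 18.7 in LMNA_KO and 32.9 and 23.3 FPKM in the Lmna-litter and Lbr-litter wild types. The part of other cell types in the Col2a1 and Col11a1 values was not tested. Macrophage genes, summing to 27.1 FPKM in the Lbr-litter wild type and 84.1 to 105 FPKM in the other 3 columns, set the Lbr-litter wild type apart in these columns.

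In striated muscle both knockouts were compared with the wild-type column they share, without matching by litter. In LBR_KO muscle 0 of 31 collagen genes rose and 0 fell, against 1.30% and 0.265% of 12080 genes. In LMNA_KO muscle 0 of 31 rose and 0 fell, against 1.93% and 0.762% of 12068 genes. The medians were 0.04 and -0.03, beside 0.10 and 0.13 for all genes. The collagen genes ran from -0.86 (Col2a1) to 0.55 (Col23a1) in LBR_KO and from -0.71 (Col2a1) to 0.55 (Col7a1) in LMNA_KO.

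**Figure D4:**
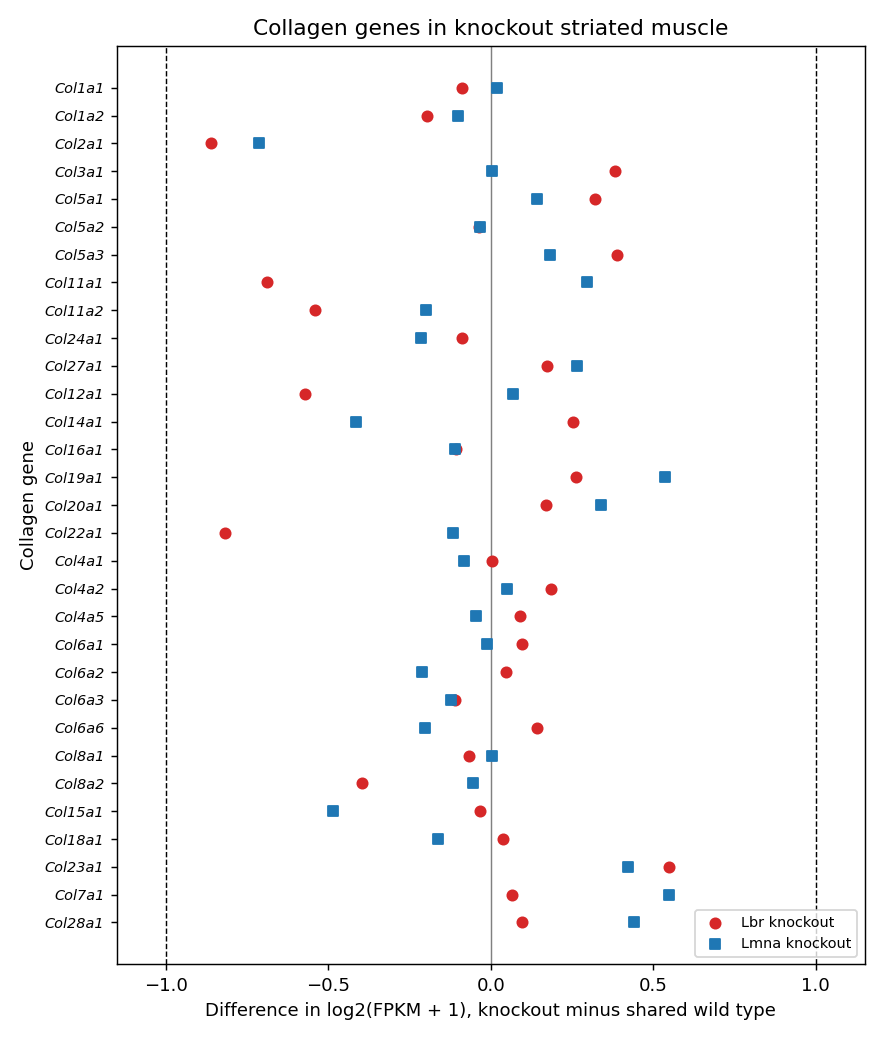
Difference in log2(FPKM + 1) between LBR_KO (circles) or LMNA_KO (squares) and the shared wild-type muscle column for 31 collagen genes, with dashed lines at 2-fold. No gene reaches a line, and the circles of Col2a1, Col11a1, Col11a2, Col12a1 and Col22a1 are the 5 farthest to the left.

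The 5 lowest values of collagen genes in LBR_KO muscle, singled out after they were seen and none at -1 on the log2(FPKM + 1) scale, were those of Col2a1, Col22a1 (7.09 to 3.59 FPKM, -0.82), Col11a1 (8.30 to 4.77 FPKM, -0.69), Col12a1 (9.45 to 6.03 FPKM, -0.57) and Col11a2 (7.11 to 4.57 FPKM, -0.54). In LMNA_KO muscle Col22a1, Col11a1, Col12a1 and Col11a2 were at -0.12, 0.30, 0.07 and -0.20. Among the abundant fibril genes, Col3a1 was at 0.38, Col5a1 at 0.32 and Col5a3 at 0.39 in LBR_KO muscle, and Col1a1 and Col1a2 at -0.09 and -0.20. In LMNA_KO muscle Col3a1, Col1a1, Col1a2 and Col5a1 stayed between -0.10 and 0.14. Type IV and VI genes stayed between -0.21 and 0.18 in both knockouts. Col15a1 and Col14a1 were at -0.48 and -0.41 in LMNA_KO (80.7 to 57.4 and 18.9 to 13.9 FPKM) and at -0.03 and 0.25 in LBR_KO.

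Tendon and bone markers differed between the muscle columns as well. All 4 tenocyte genes compared lay below the wild type in LBR_KO (0 fell, median -0.70) and above it in LMNA_KO (0 rose, median 0.21). Of all genes, 66.6% and 65.5% lay above the wild type in these columns. Tnmd, the tendon protein tenomodulin, was at 70.3 FPKM in the wild type, 35.0 in LBR_KO and 77.9 in LMNA_KO. Of the osteoblast genes compared, 3 of 5 fell in LBR_KO and 2 of 6 rose in LMNA_KO, against 0.265% and 1.93% of all genes. Bglap, which encodes the bone protein osteocalcin, was at 21.3, 1.90 and 65.1 FPKM, and Ibsp, bone sialoprotein, at 11.3, 0.16 and 7.77 FPKM, in wild-type, LBR_KO and LMNA_KO muscle. The sums of all osteoblast markers were 52.5, 4.61 and 120 FPKM, in the wild type and LMNA_KO mostly from Bglap and Bglap2. Those of the tenocyte markers were 171, 105 and 212 FPKM. The part of either cell type in the collagen values was not tested.

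**Figure D5:**
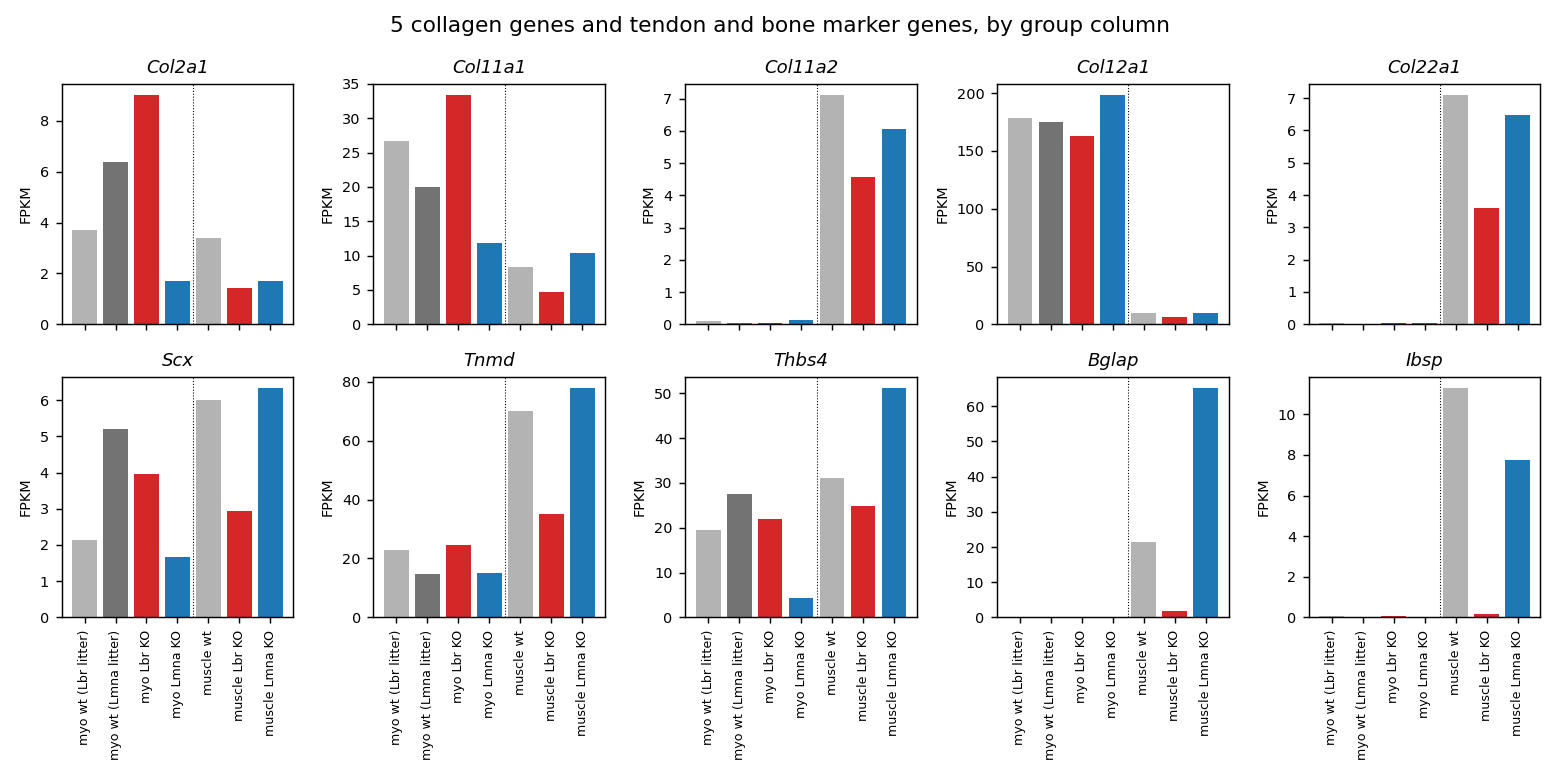
FPKM of 5 collagen genes (top) and of 3 tendon and 2 bone marker genes (bottom) in the 7 group columns, grey for wild type, red for LBR_KO and blue for LMNA_KO, myoblasts to the left of the dotted line; each panel has its own axis from 0. In muscle the LBR_KO bar is the lowest in all 10 panels, and in myoblasts LMNA_KO is lowest for Col2a1, Col11a1, Scx and Thbs4. The 5 collagen genes are those lowest in LBR_KO muscle, singled out after they were seen, so their bars below the wild type follow from that choice. The markers drawn are 3 of 5 tenocyte and 2 of 8 osteoblast markers.

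The machinery lists were compared in the knockouts in the same way. Over the 4 comparisons with own controls, 0 genes rose and 0 fell among collagen modification and folding, processing and crosslinking, fibril-binding proteins and basement membrane partners, of which 9 to 20 were compared per list. Of all genes, 0.122% to 2.48% were called per comparison and direction, shares at which lists of this size can hold 0. Among receptor and uptake genes, Lair1, a collagen receptor of leukocytes, rose in LBR_KO myoblasts (1.37 to 3.94 FPKM, 1.06), where macrophage genes were higher too, and was at 3.27 FPKM in the other wild type. Ctsk, the collagen-degrading protease of osteoclasts, fell in LBR_KO muscle (10.6 to 4.04 FPKM, log2 difference -1.20), beside the osteoblast genes above. The fibril-binding proteoglycan genes Ogn and Aspn, at 30.2 and 31.4 FPKM in LBR_KO myoblasts and 6.67 and 6.82 FPKM in LMNA_KO myoblasts, had the same first and last columns as Col3a1 and Col11a1, with 8.78 to 22.9 FPKM in the wild types. For the fibril-binding list the control mattered. With the other litter as control, 3 of 9 rose in LBR_KO (Ogn at 1.67, Aspn at 1.64 and Lum at 1.39), against 1.56% of all genes. In LMNA_KO 2 of 9 fell with that control (Ogn at -1.17 and Aspn at -1.61), against 1.13% of all genes. The wild types themselves differed at 2 of the 9, with Aspn and Lum lower in the Lmna litter (-1.21 and -1.04), as were 0.687% of all genes. In LMNA_KO myoblasts, where type IV genes lay above both wild types, the basement membrane partners, which include laminins, nidogens, perlecan and agrin, had a median of 0.17 (9 of 12 above the own wild type, against 58.1% of all genes) and of 0.32 with the other control (11 of 12 above, against 59.1% of all genes).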

How the data were processed

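Total RNA was isolated with TRIZOL and RNeasy columns, per the labels' protocols, which name the NuGEN Ovation kit for samples 1 to 6 and the NuGEN complete protocol for samples 7 to 12, in listing order the myoblasts and the muscle. The deposited values are FPKM calculated by the authors, 7 columns matched to groups by name, with 0 columns left unmatched. Per the submitters' processing notes the genome was mm9. Aligner, quantification tool and annotation: not given in the sources used here. No counts were used, and depth was estimated from 4179 single-transcript genes. Differences used a pseudocount of 1. limma 3.58.1 (R 4.3.3, prior with trend) gave the only p-values, was tested on simulated data, and was adjusted over all 11447 genes. The p-values rest on the gap between the wild-type myoblast libraries, of different litters, and on a prior over all genes. They measure no spread between knockout samples, and nothing says that samples were separate animals. Of 194 symbols on the lists, older and newer names together, 12 were not in the table. Named genes were members called in a knockout, the 5 most abundant of each tissue, chains that share their trimers, and called or extreme list genes. Ogn and Aspn, Lama2, the genes of the upstream windows, the other members named and the Lbr and Lmna checks were chosen with values seen. The members and lists were chosen with earlier results of these data known. Tested alternatives were pseudocounts, level filters, centring, quantile normalization and controls.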

Additional observations from a re-analysis of the deposited data

Results flagged for a closer look

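Differences of opposite sign between comparisons, at least 2-fold apart, were found for Col2a1 and Col11a1. None of these differences of litter-matched values was tested, as each rests on single columns. Between the myoblast knockouts, LBR_KO minus LMNA_KO, Col2a1 differed by 2.55 (1.09 and -1.45) and Col11a1 by 1.02 (0.31 and -0.71). Without litter matching, the knockout columns differed from each other by 1.90 for Col2a1 and 1.42 for Col11a1. The limma contrast of these columns was chosen after the values were seen, has 1 column in each arm and takes its error from the wild types alone, so it gives no support of its own. Between myoblasts and muscle of LBR_KO, Col2a1 differed by 1.96 (1.09 in myoblasts and -0.86 in muscle) and Col11a1 by 1.001 (0.31 and -0.69). For LMNA_KO the difference of Col11a1 was -1.005 (-0.71 in myoblasts and 0.30 in muscle). Osteoblast markers summed to 120 against 52.5 FPKM in that muscle column, most of it from Bglap and Bglap2. Of 6 osteoblast genes compared there, 4 lay above the wild type and 2, Ibsp and Alpl, below it. With the wild types exchanged, the myoblast values of Col2a1 were 0.44 and -0.80 and those of Col11a1 0.71 and -1.11, each with its sign kept.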

How the results depend on the processing

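Of 86 counts of collagen genes recomputed under the alternatives, 74 were within 1.5 times the reported count and 12 were not. In most of the 74, a count of 0 stayed 0, so they say little about how stable the calls are. The rise in LBR_KO myoblasts (1 gene) became 0 with a pseudocount of 5, the other litter's wild type, quantile normalization, both wild types as 1 control, or limma. The fall in LMNA_KO myoblasts (1 gene) became 0 with a pseudocount of 5 and with limma. With the other litter's wild type it stayed at 1, but the gene was Col11a1 in place of Col2a1. In LBR_KO muscle 1 gene fell, in place of 0, with a pseudocount of 0.1 and with quantile normalization. Of the tissue counts, the 11 higher genes became 6 with a pseudocount of 5 and 6 with a mean of at least 5 FPKM, where fewer genes were compared, and the 8 lower became 5 with centring. Without replicate 1 of either wild-type myoblast group, 10 to 10 were higher and 8 to 8 lower. No called gene changed its sign under these alternatives. Col2a1 was at 0.69 and -0.76 in the myoblast knockouts with a pseudocount of 5. Apart from the construction of the alternatives, the cause of these changes was not tested. No paired analysis was possible because the table gives a single column per group, and for the same reason single samples of the knockouts and of wild-type muscle were not left out. With no replicate values, no group difference can be set against the spread between animals. Low muscle values rest on few fragments.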
